A study of Mus musculus with 8 samples.

Results

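The genes of the melanocortin system and of the cAMP pathway that it drives were followed in the livers of mice that lack the melanocortin 1 receptor in hepatocytes. The members were chosen by name as the 5 melanocortin receptors, their ligand precursor, antagonists and accessory proteins, Gs alpha, the adenylyl cyclases, the subunits of protein kinase A (PKA), the cAMP-degrading phosphodiesterases (PDEs) of the PDE3, PDE4, PDE7 and PDE8 families, the A-kinase anchoring proteins, CREB and its CRTC coactivators, and the Epac exchange factors. In all, 58 of the 55487 genes in the count tables were members, and 39 of these were among the 13400 genes abundant enough to be tested. The other 19 had too few reads, and 9 of them had no read in any mouse. RNA sequencing was performed on whole liver of 4 Control mice, identified by the numbers 154, 159, 181 and 193, and of 4 Mc1r LKO mice, with the numbers 141, 156, 157 and 182. Mc1r LKO mice carried floxed alleles of Mc1r together with Alb-Cre, in which the albumin promoter drives Cre in hepatocytes, whereas the Control mice carried the same floxed alleles (Mc1r fl/fl) without Cre. All mice were males that entered the experiment at 8 weeks of age, ate a Western diet for 12 weeks and were fasted briefly before the livers were taken. Cre was meant to act in hepatocytes, and whether the Mc1r gene of other liver cells was left intact was not measured here. Since the Control mice had no Cre, an effect of Cre and an effect of the lost receptor cannot be told apart.

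Pomc encodes pro-opiomelanocortin, the precursor from which proteases release ACTH and the melanocyte-stimulating hormones. These peptides act on receptors coupled to the stimulatory G protein Gs, which activates adenylyl cyclase, while agouti and agouti-related protein oppose them. The cAMP formed releases the catalytic subunits of PKA from their regulatory subunits and activates Epac, PKA phosphorylates CREB, and PDEs end the signal by degrading cAMP. In the liver, this pathway is best known as the one through which glucagon raises glucose output during fasting.

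The deposited values were counts of read pairs per gene, and between 10773151 and 24763375 pairs were counted on genes in a mouse. Levels are given as CPM, which is read pairs scaled to a common library size and corrected for library composition by TMM factors, and levels of different genes were compared only as RPKM, which is CPM per kilobase of exon. Genes are called nominally lower or higher in Mc1r LKO mice when the unadjusted p of edgeR's quasi-likelihood test was under 0.05 and the log2 fold change, given here as Mc1r LKO over Control, was at least 0.25 in size. The study's methods give this threshold for a p-value without calling it adjusted, while its results name an adjusted one. The hepatocyte markers, such as albumin, summed to between 80218 and 99442 CPM in Control mice and between 86448 and 112502 CPM in Mc1r LKO mice. Of these 9 markers, 1 was nominally lower (unadjusted p = 0.0235, Benjamini-Hochberg adjusted p = 0.734, edgeR quasi-likelihood test), where 2.66% of all genes were. A positive log2 fold change was found for 7 of the 9, where 6412 of the 13400 genes tested had one. The lists of markers for other liver cells were far less abundant. Control mouse 159 had the highest Kupffer cell marker sum, 628 CPM, and Mc1r LKO mouse 182 had the lowest, 183 CPM, and in mouse 182 the cholangiocyte, sinusoidal endothelial and stellate cell sums were also the lowest of the 8 mice. Nominally different members and pathway genes, and values that moved most when these mice were left out, are also given without them. The labels do not say how the mice were distributed over litters, cages or library batches, and in whole liver fewer cells of a type and less RNA per cell cannot be told apart.

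Few members differed between the genotypes. Of the 39 tested, 4 (10.3%) were nominally different: the cyclase gene Adcy7 and the PDE genes Pde4a and Pde4b were lower in Mc1r LKO livers (3 genes, 7.69%) and the anchoring protein gene Akap12 was higher (1 gene, 2.56%). Among all 13400 genes, 5.31% were nominally different, 2.66% lower and 2.64% higher. The genotypes did not overlap for 2 members, Pde4a and Pde4b, both lower (5.13%), while over all genes this was so for 4.16%, 1.54% lower and 2.63% higher. No member was called at an adjusted p under 0.05 in edgeR, DESeq2 or limma-voom, although DESeq2 gave no adjusted p for several members, among them Adcy7, Pde4a and Akap12. Of all genes, edgeR called 0% at this limit and DESeq2 called 17 genes, while 901 genes had an unadjusted p under 0.05 in edgeR. Of the 39 members, 28 (71.8%) had a negative log2 fold change, where 52.1% of all genes did. The median was -0.08, compared with -0.01 over all genes. In 29 members the log2 fold change was under 0.25 in size. The 95% interval held no change of 1.5-fold for 20 members and none of 2-fold for 31, whereas for the remaining 8 the interval reached a 2-fold change.

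**Figure D1:**
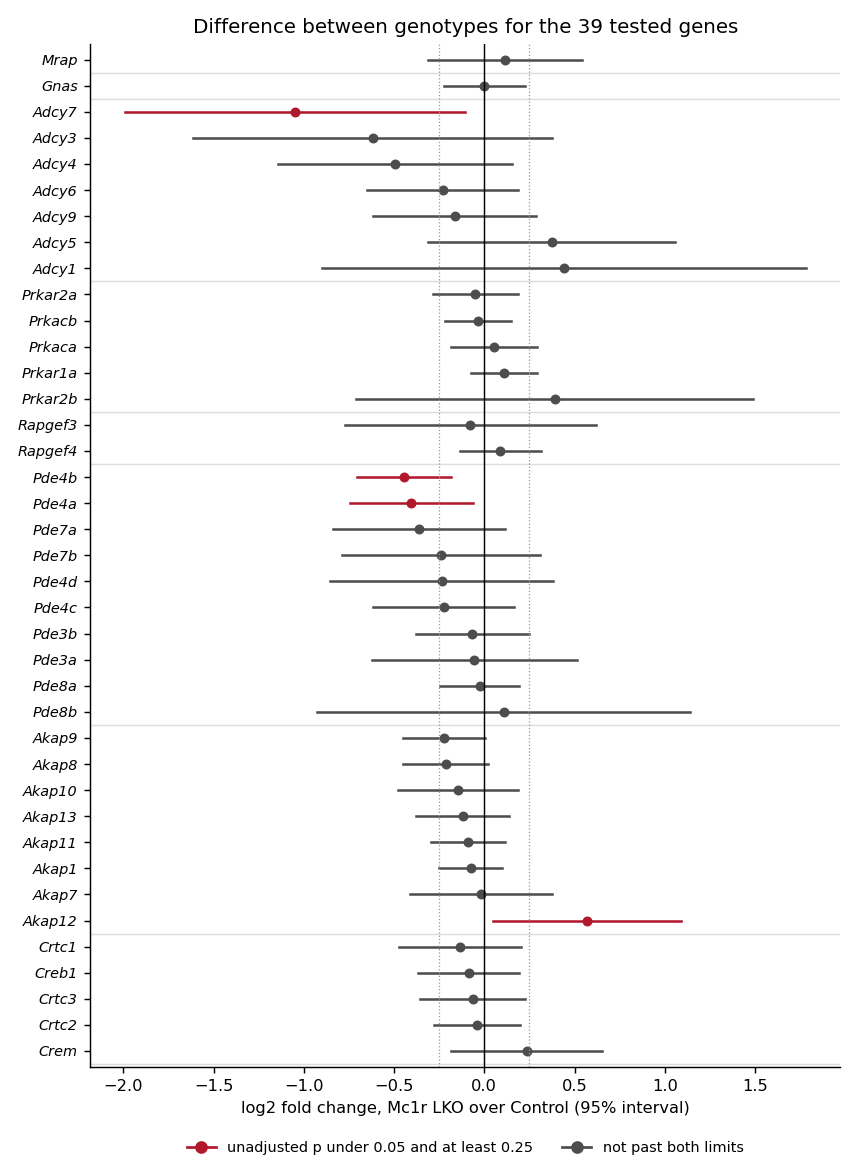
Log2 fold change (Mc1r LKO over Control) of the 39 tested genes with a 95% interval derived from edgeR's quasi-likelihood test. Genes are grouped by role from accessory protein and Gs at the top to CREB and CRTC factors at the bottom. Dotted lines mark 0.25 in either direction, and the genes past both limits are red: Adcy7, Pde4b and Pde4a lower and Akap12 higher.

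The receptor that was deleted could not be seen in these libraries. Mc1r (ENSMUSG00000074037, chr8:123407107-123410744 of GRCm38, 1 exon of 3638 bases) had 0 counts in all 4 Control and all 4 Mc1r LKO livers. A count of 0 allows up to 3 counts, which corresponds to between 0.121 and 0.278 CPM and to at most 0.0765 RPKM, and this limit covers only counting error. RNA of the receptor was therefore not detectable at this depth in either genotype, and the knockout could not be checked against its own target in these counts. For recombination of the floxed allele and reduced hepatic Mc1r in this mouse line, the study refers to its earlier work. The other 4 receptors, namely the ACTH receptor Mc2r, the brain receptors Mc3r and Mc4r, and Mc5r, which is known from exocrine glands, also had 0 counts in every mouse. The melanocyte genes Tyr, Tyrp1, Sox10 and Oca2 had 0 counts in every mouse as well, and the 9 melanocyte markers together summed to between 5.67 and 8.64 CPM in Control mice and between 4.98 and 7.83 CPM in Mc1r LKO mice.

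Ligand RNA was close to absent. Pomc (ENSMUSG00000020660, chr12:3954951-3960642) had 1, 4, 1 and 5 counts in Control mice 154, 159, 181 and 193, and 1, 0, 3 and 4 counts in Mc1r LKO mice 141, 156, 157 and 182. The groups overlapped, and mean Pomc CPM did not pass a two-sided exact permutation test (p = 0.429), in which 4 mice against 4 can reach no p below 0.0286. The antagonist genes Asip (agouti) and Agrp (agouti-related protein) had 0 counts in all mice. The convertases Pcsk1 and Pcsk2, which cut pro-opiomelanocortin in pituitary and brain, had at most 0.0704 CPM and 0 counts, respectively.

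In contrast to the receptors, an accessory protein gene had the highest mean RPKM of all members. Mrap encodes the melanocortin 2 receptor accessory protein, a small membrane protein that carries MC2R to the cell surface in the adrenal gland and is also expressed in fat. Its level (ENSMUSG00000039956, chr16:90738207-90749785) was 85.9, 82.7, 79.8 and 47.2 CPM in Control mice 154, 159, 181 and 193, and 64.8, 89.5, 94.4 and 71.0 CPM in Mc1r LKO mice 141, 156, 157 and 182. Control mouse 193 was the lowest of the 8, and the groups overlapped. With a mean of 48.6 RPKM over the 8 mice (range 29.8 to 59.7), Mrap stood level with Gnas at 47.5 RPKM (range 42.8 to 55.5), although its partner Mc2r was at 0 counts. In read pairs Gnas was far higher, at 488 to 632 CPM. The RPKM of Gnas rests on 11.387 kb of exon, which pools the alternative products of its locus, against 1.581 kb for Mrap. The order of Mrap and Gnas per length therefore depends on the exon length used. The log2 fold change of Mrap was 0.11 ± 0.19 (SE, n = 4 per group; Benjamini-Hochberg adjusted p = 0.938, edgeR quasi-likelihood test), and its 95% interval ran from -0.31 to 0.54. Leaving out Control mouse 193 gave Mrap a log2 fold change of -0.04. The adipocyte genes Adipoq and Plin1 had at most 7 and 3 counts in any mouse. Mouse 157, which had the highest Mrap level, had 0 Adipoq and 2 Plin1 counts. Leptin (Lep) had 0 counts in every mouse, and the sum of the 5 adipocyte markers, 50.3 to 134 CPM in Control mice and 18.9 to 41.6 CPM in Mc1r LKO mice, came almost wholly from Cfd and Cidea. The part of fat cells in the Mrap level was not tested. Mrap2, the relative of Mrap that acts on MC4R, had 0 counts in every mouse.

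**Figure D2:**
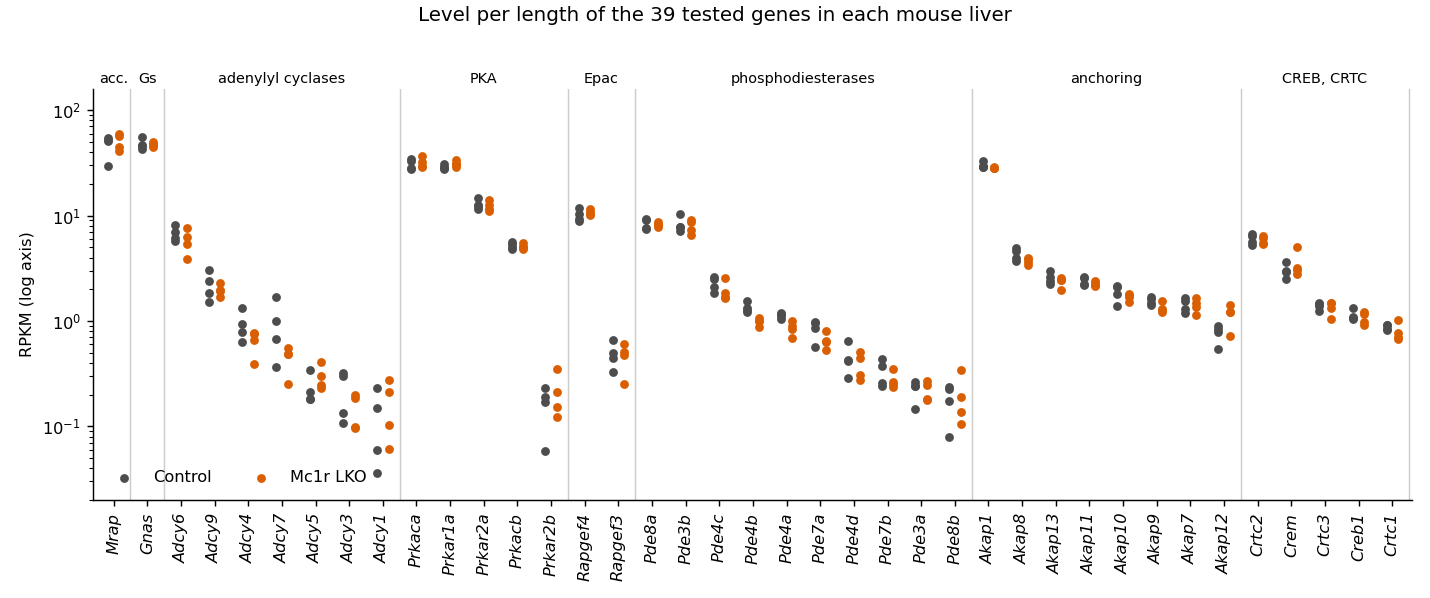
Level per length (RPKM, log axis) of the 39 tested genes in each of the 8 livers, with 1 point per mouse, Control in grey and Mc1r LKO in orange, ordered within each role by mean level. Mrap (48.6 RPKM), Gnas (47.5), Prkaca (31.4), Prkar1a (29.9) and Akap1 (29.3) had the highest RPKM, and the genotypes overlapped for all genes but Pde4a and Pde4b.

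Gs alpha did not differ between the genotypes beyond the spread between mice. Gnas (ENSMUSG00000027523, chr2:174284320-174346744) encodes Gs alpha, which links the receptor to adenylyl cyclase, and its counts include the alternative products of this complex locus. Its level was 529, 632, 488 and 516 CPM in Control mice 154, 159, 181 and 193, and 542, 574, 513 and 535 CPM in Mc1r LKO mice 141, 156, 157 and 182. All 4 Mc1r LKO values lay inside the Control range. The ratio of Mc1r LKO to Control was 1.00, with a 95% interval of 0.856 to 1.17.

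Among the adenylyl cyclases, which form cAMP, the calcium-inhibited Adcy6 predominated. It made up between 58.6% and 60.2% of the summed RPKM of the 10 cyclase genes in Control mice and between 49.8% and 67.0% in Mc1r LKO mice, and it was followed by Adcy9, with between 12.8% and 29.3% over the 8 mice. Adcy6 had 41.5, 47.2, 38.9 and 54.8 CPM in Control mice 154, 159, 181 and 193, and 51.3, 42.1, 36.2 and 26.2 CPM in Mc1r LKO mice 141, 156, 157 and 182. Mouse 182 was the lowest of the 8 for Adcy6, and the groups overlapped (log2 fold change -0.23 ± 0.19 SE, 95% interval -0.65 to 0.19). Without mouse 182 this value was -0.08, and without mice 159 and 182 together it was -0.06. Adcy9 had 9.52, 7.90, 12.4 and 15.7 CPM in Control mice and 10.2, 8.77, 10.1 and 11.8 CPM in Mc1r LKO mice in the same order, so that the Mc1r LKO values lay within the Control range. Its log2 fold change was -0.16 ± 0.20 (SE).

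One cyclase, Adcy7, was nominally lower in Mc1r LKO livers. Adcy7 (ENSMUSG00000031659, chr8:88272403-88329962) is the cyclase best known from macrophages and other blood cells. Its level was 4.57, 11.2, 2.45 and 6.69 CPM in Control mice 154, 159, 181 and 193, and 3.25, 3.70, 3.27 and 1.69 CPM in Mc1r LKO mice 141, 156, 157 and 182. Control mouse 159 was far above all others, Control mouse 181 lay below 3 of the 4 Mc1r LKO mice, and the groups overlapped. The log2 fold change was -1.05 ± 0.42 (SE, n = 4 per group; unadjusted p = 0.0326, Benjamini-Hochberg adjusted p = 0.734, edgeR quasi-likelihood test, and adjusted p of 0.681 to 0.820 over the 6 alternatives that gave one). Without mouse 159, this value was -0.62 and no longer nominally different, and without mice 159 and 182, an alternative chosen after seeing the data, it was -0.43. Adcy7 was called under 6 of 7 alternatives, limma-voom being the exception (-0.84), and in only 3 of the 8 fits that left out 1 mouse. The call was also lost without Control mouse 193 or without Mc1r LKO mouse 141, 157 or 182, with log2 fold changes between -1.10 and -0.84.

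The level of Adcy7 was set beside the markers of Kupffer cells, the resident macrophages of the liver. The sum of 7 Kupffer cell markers was 264.7 to 628 CPM in Control mice and 183 to 383 CPM in Mc1r LKO mice. All 7 markers had a negative log2 fold change (median -0.45), where 52.1% of all genes did. Of the 7 markers, 1 was nominally lower, the macrophage growth factor receptor gene Csf1r, where 2.66% of all genes were lower. Its log2 fold change was -0.77 ± 0.32 (SE; unadjusted p = 0.0375, Benjamini-Hochberg adjusted p = 0.734, edgeR quasi-likelihood test). The 2 mice with the highest marker sums, 159 and 193, were also the 2 with the highest Adcy7, and mouse 182 was the lowest for both. The part of these markers in the difference of Adcy7 was not tested. The remaining cyclases were scarce: Adcy1, Adcy3, Adcy4 and Adcy5 had means of 0.141 to 0.782 RPKM and log2 fold changes between -0.62 and 0.44, none of which was nominally different. Adcy2, Adcy8 and Adcy10 were not tested, and they had at most 6 counts in any mouse.

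**Figure D3:**
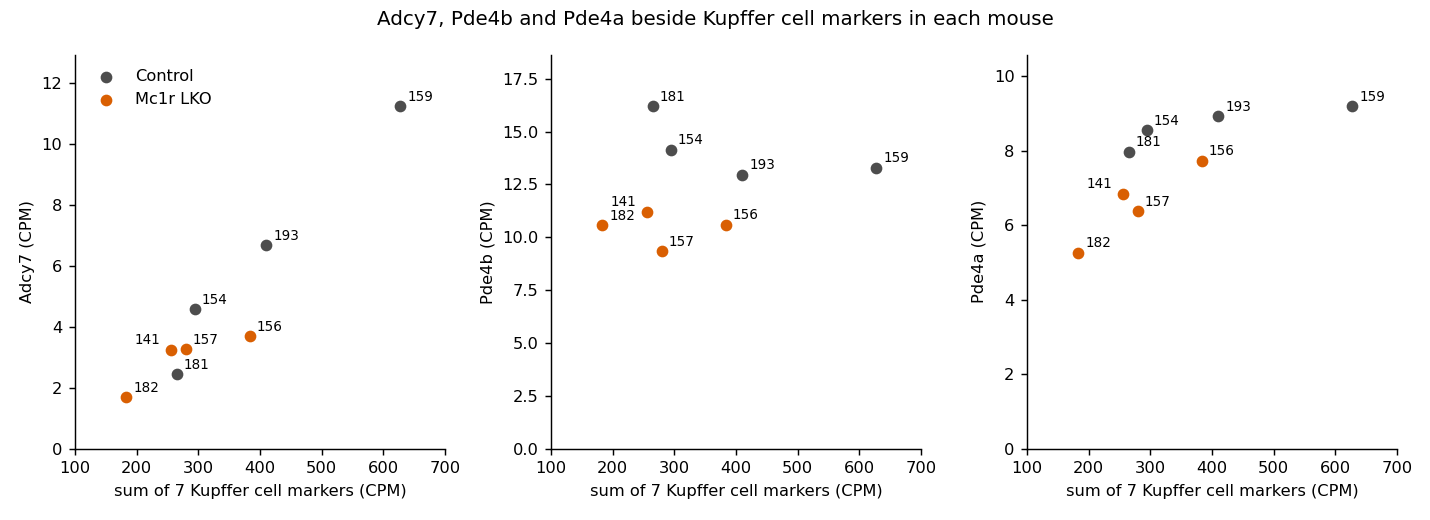
Level of Adcy7, Pde4b and Pde4a (CPM) in each mouse plotted against the summed level of 7 Kupffer cell markers (CPM), with 1 point per mouse labelled by its number, Control in grey and Mc1r LKO in orange. Adcy7 was highest in mouse 159 (11.2 CPM), which had the highest marker sum (628 CPM), whereas Pde4b was at most 11.2 CPM in all 4 Mc1r LKO mice and at least 13.0 CPM in all 4 Control mice.

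PKA is a tetramer in which 2 regulatory subunits hold 2 catalytic subunits inactive until cAMP binds. By RPKM, it was encoded mainly by Prkaca and Prkar1a in the liver of both genotypes. The share of Prkaca depends on the exon length used, 2.488 kb against 8.772 kb for Prkacb. Prkacb had 41.9 to 49.1 CPM over the 8 mice. Prkaca made up between 84.3% and 88.0% of catalytic subunit RPKM in the 8 mice, with Prkacb as the rest, and Prkar1a made up between 66.2% and 72.2% of regulatory subunit RPKM, with Prkar2a next at between 27.2% and 33.1%. Prkaca had 85.0, 82.2, 71.1 and 68.2 CPM in Control mice 154, 159, 181 and 193, and 72.6, 91.1, 80.9 and 73.5 CPM in Mc1r LKO mice 141, 156, 157 and 182. Prkar1a had 133, 118, 125 and 121 CPM in Control mice and 125, 132, 134 and 145 CPM in Mc1r LKO mice in the same order. The groups overlapped for both genes. The log2 fold changes were 0.05 ± 0.11 (SE) for Prkaca and 0.11 ± 0.08 (SE) for Prkar1a, and their 95% intervals, from -0.19 to 0.29 and from -0.07 to 0.29, held no change of 1.5-fold. Prkacb and Prkar2a had log2 fold changes of -0.04 and -0.05. Prkar2b, the subunit typical of fat and brain, was near the limit of detection with 0.186 RPKM, and Prkar1b, a neuronal subunit, was not tested (3 to 12 counts per mouse, with 8.95% of its exon length shared with Gm15672).

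Epac, the cAMP effector that activates Rap independently of PKA, was represented almost wholly by Epac2, encoded by Rapgef4. Rapgef4 made up between 94.3% and 97.9% of the Epac RPKM. Its level was 69.8, 61.8, 59.4 and 78.0 CPM in Control mice 154, 159, 181 and 193, and 67.6, 69.7, 71.7 and 77.4 CPM in Mc1r LKO mice 141, 156, 157 and 182, and all Mc1r LKO values lay within the Control range. Rapgef3, encoding Epac1, had 2.07 to 4.20 CPM in Control mice (median 2.99) and 1.58 to 3.87 CPM in Mc1r LKO mice (median 3.11). Their log2 fold changes were 0.09 ± 0.10 (SE) and -0.08 ± 0.31 (SE).

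**Figure D4:**
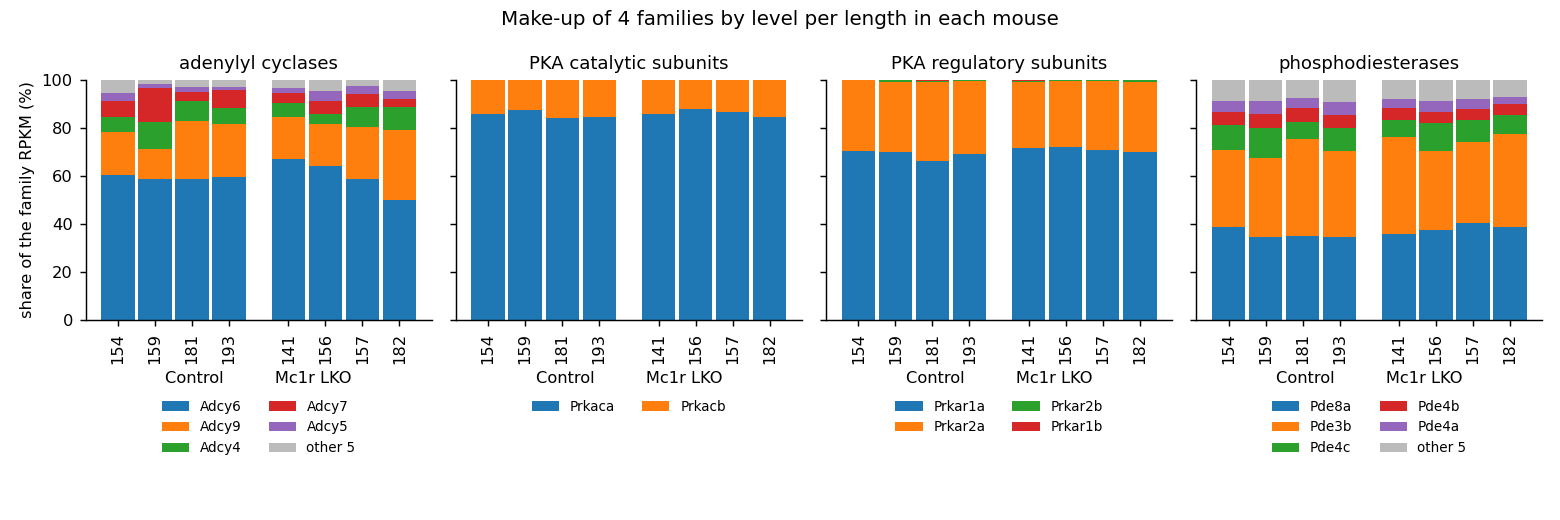
Share of each gene in the summed RPKM (%) of the adenylyl cyclases, the PKA catalytic subunits, the PKA regulatory subunits and the phosphodiesterases, with 1 stacked bar per mouse, Control mice on the left and Mc1r LKO mice on the right of each panel. Adcy6, Prkaca and Prkar1a held the largest share of their family in all 8 mice, and the Adcy6 share was lowest in mouse 182 (49.8%).

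The PDEs, which degrade cAMP, held 2 of the 4 nominally different members and both members in which the genotypes did not overlap. Pde8a and Pde3b were the most abundant of the 10 genes, with 8.30 and 8.08 RPKM, and together they made up between 67.6% and 77.3% of the summed RPKM in each mouse. Their order depends on the exon length used, 4.045 kb for Pde8a and 9.114 kb for Pde3b, and in CPM Pde3b was higher. Neither gene differed beyond its spread. Pde8a, which encodes an enzyme with high affinity for cAMP, had 37.7, 30.3, 36.6 and 30.7 CPM in Control mice 154, 159, 181 and 193, and 33.0, 33.4, 31.3 and 35.4 CPM in Mc1r LKO mice 141, 156, 157 and 182 (log2 fold change -0.02 ± 0.10 SE). Pde3b, the PDE through which insulin lowers cAMP in liver and fat, had 70.8, 64.7, 94.1 and 71.7 CPM in Control mice and 82.8, 66.3, 59.8 and 79.3 CPM in Mc1r LKO mice in the same order (log2 fold change -0.07 ± 0.14 SE).

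The PDE4 enzymes are the cAMP-specific, rolipram-sensitive PDEs, and 2 of the 4 PDE4 genes were nominally lower in Mc1r LKO livers, both without overlap between the genotypes. Over all genes, 2.66% were nominally lower and 1.54% were lower without overlap. The PDE4 genes were not a role set in advance. Of the 10 PDE genes that were, the same 2 (20%) were nominally lower. The count among PDE4 genes is therefore a description and not independent support. Pde4b (ENSMUSG00000028525, chr4:102087543-102607259) had 14.1, 13.3, 16.2 and 13.0 CPM in Control mice 154, 159, 181 and 193, and 11.2, 10.6, 9.33 and 10.6 CPM in Mc1r LKO mice 141, 156, 157 and 182. Every Mc1r LKO mouse was below every Control mouse. The mean was 14.2 ± 1.46 CPM in Control mice and 10.4 ± 0.785 CPM in Mc1r LKO mice (SD, n = 4 each), and the ratio was 0.735 (95% interval 0.613 to 0.881). As a log2 fold change this was -0.44 ± 0.12 (SE; unadjusted p = 0.00351, Benjamini-Hochberg adjusted p = 0.734, edgeR quasi-likelihood test, and adjusted p of 0.203 to 0.820 over 7 alternatives). Pde4b was nominally lower in all 8 fits that left out 1 mouse, with log2 fold changes of -0.48 to -0.37, under all 7 alternatives, and without mice 159 and 182 together (-0.48). Within the family, Pde4b made up 5.54% to 5.96% of PDE RPKM in Control mice and 4.44% to 4.69% in Mc1r LKO mice, again without overlap, a share that does not depend on how libraries are scaled.

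Pde4a (ENSMUSG00000032177, chr9:21165714-21213248) had 8.56, 9.20, 7.97 and 8.93 CPM in Control mice 154, 159, 181 and 193, and 6.84, 7.73, 6.38 and 5.26 CPM in Mc1r LKO mice 141, 156, 157 and 182. Here too every Mc1r LKO mouse was below every Control mouse, with mouse 156 closest to the Control range. This corresponded to a log2 fold change of -0.40 ± 0.15 (SE; unadjusted p = 0.0239, Benjamini-Hochberg adjusted p = 0.734, edgeR quasi-likelihood test, and adjusted p of 0.681 to 0.820 over the 6 alternatives that gave one). Pde4a was nominally lower under all 7 alternatives but in only 4 of the 8 fits that left out 1 mouse, since the unadjusted p rose to between 0.0509 and 0.0660 without Control mouse 159 or 193 or without Mc1r LKO mouse 157 or 182. Without mice 159 and 182 together, the log2 fold change of Pde4a was -0.28 and not nominally different. As a share of PDE RPKM, Pde4a overlapped between the genotypes, with 4.04% to 5.57% in Control mice and 3.05% to 4.57% in Mc1r LKO mice. Pde4a was highest in mouse 159 and lowest in mouse 182, which were also the extremes of the Kupffer marker sum, whereas Pde4b was not ordered in this way. The part of these cells in the difference of Pde4a was not tested.

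The other 2 PDE4 genes had log2 fold changes of the same sign that stayed within the spread between mice. Pde4c had 14.0, 14.8, 10.3 and 11.7 CPM in Control mice and 9.20, 14.3, 9.49 and 10.4 CPM in Mc1r LKO mice in the order of mice given above, with a log2 fold change of -0.22 ± 0.18 (SE, unadjusted p = 0.230 by edgeR's quasi-likelihood test). Pde4d had a log2 fold change of -0.24 ± 0.28 (SE). Over all 10 PDE genes, 9 (90%) had a negative log2 fold change, where 52.1% of all tested genes did. Pde8b was the exception (0.11 ± 0.47 SE). The PDE median was -0.23 against -0.01 over all tested genes. Pde3a, Pde7a and Pde7b had log2 fold changes of -0.06, -0.36 and -0.24, none of them nominally different. The 4 mice of a group are the same for all of these genes, so the genes are not independent of each other.

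**Figure D5:**
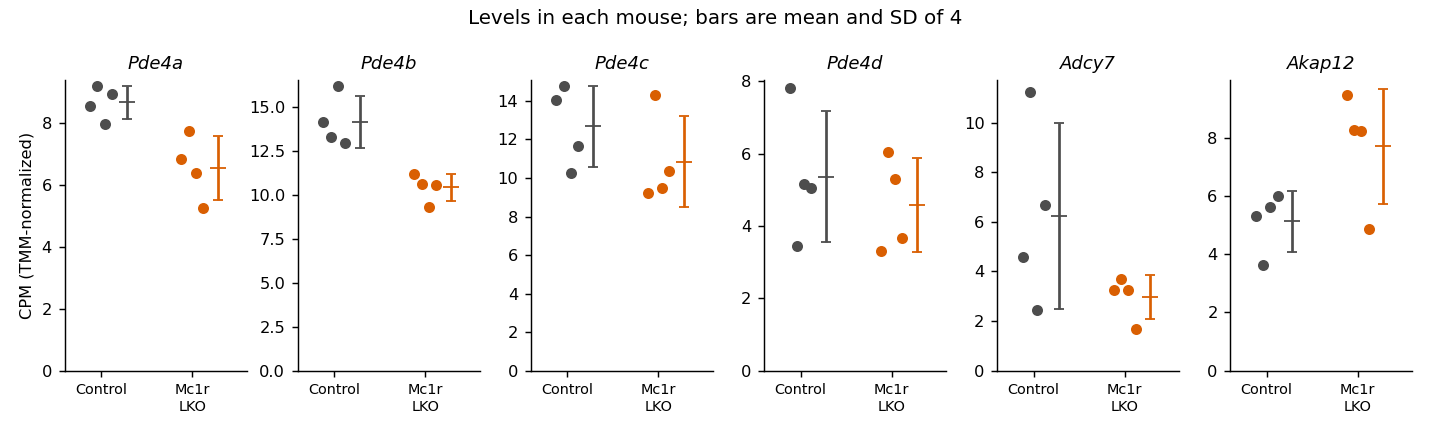
Level (CPM) of the 4 PDE4 genes and of Adcy7 and Akap12 in each mouse, with 1 point per mouse and a bar for the mean and SD of 4 mice, each axis starting at 0. All Mc1r LKO mice lay below all Control mice for Pde4a and Pde4b, and the genotypes overlapped for Pde4c, Pde4d, Adcy7 and Akap12.

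PDE4 genes are known to be induced by cAMP itself, and CREB binds the cAMP response element (CRE), TGACGTCA, or its half-site, TGACG, read as CGTCA on the other strand. These letters were searched on both strands in RefSeq promoter windows of the GRCm38.p6 build, each from 250 bases before to 50 bases after a transcript start, and a full CRE also counts as a half-site. At least 1 window was found for 44 of the 58 members, among them 31 of the 39 tested. A half-site was present in 15 of these 44 genes (34.1%), against 23.0% of the 27025 genes in the table, and genes with several windows have more chances to hold one. Counted over windows, the share was 24.7% of 77 for the members and 20.8% of 32851 for all genes. The full CRE was present in 1 of the 44 members, Prkar1a, against 2.03% of all genes. For comparison, 10 of 14 genes with a window in a list of known CREB and CRTC2 targets held a half-site and 2 held the full CRE, Dusp1 and Sst. Pde4b held a half-site in 1 of 4 windows, Pde4a in 1 of 3 and Adcy7 in 1 of 3, and no window was found for Akap12. The stretches of 30 bases around these motifs are shown because Pde4b, Pde4a and Adcy7 were the nominally lower members, Prkar1a was the member with a full CRE, and Pck1 and Per1 are textbook CREB targets. Not printed are a further half-site of Per1, 246 bases before a start, and half-sites of Prkar1a, 151 and 100 bases before a start. Capitals mark the motif, all on the plus strand.
Pde4b, chr4:102421509-102421538, in the gene and partly over an exon of another transcript, 34 bases before the start: gatttggctgcaCGTCAattttctcatctg
Pde4a, chr9:21184039-21184068, in an intron of longer transcripts, 50 bases before the start: ggcacagctcgaCGTCAggctggggaggag
Adcy7, chr8:88282952-88282981, in an intron of a longer transcript, 28 bases before the start: tgatcatagagcCGTCAggggggtggggct
Prkar1a, chr11:109650889-109650918, in an intron of longer transcripts, 49 bases before the start: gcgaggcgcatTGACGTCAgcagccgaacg
Pck1, chr2:173152971-173153000, upstream of the gene, 90 bases before the start: gcctgccccttaCGTCAgaggcgagcctcc
Per1, chr11:69100008-69100037, in an intron of a longer transcript, 132 bases before the start: gagctcagcggcTGACGtcggtttccctgg
A match is a description of the letters only, since no binding was measured here, and the gene counts do not say which start was used.

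The anchoring proteins, which hold PKA close to its substrates, were led by Akap1, the anchor of the outer mitochondrial membrane. Akap1 had 145, 130, 126 and 127 CPM in Control mice 154, 159, 181 and 193, and 123, 124, 128 and 125 CPM in Mc1r LKO mice 141, 156, 157 and 182. It was the steadiest of the 39 tested members, with a coefficient of variation within genotype of 4.80%, and its log2 fold change was -0.08 ± 0.08 (SE, 95% interval -0.25 to 0.10). Akap8, a nuclear anchor, had 34.2, 42.3, 40.3 and 32.3 CPM in Control mice and 33.5, 33.9, 29.6 and 31.3 CPM in Mc1r LKO mice in the same order, and the groups overlapped through Control mouse 193. Its log2 fold change was -0.21 ± 0.11 (SE, unadjusted p = 0.0695 by edgeR's quasi-likelihood test), and it passed both limits without Control mouse 193 (-0.27) and when libraries were scaled by the total count only (-0.25).

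Akap12 was the only member nominally higher in Mc1r LKO livers. Akap12 (ENSMUSG00000038587, chr10:4266380-4359470), also known as gravin or SSeCKS, is a scaffold that binds PKA and protein kinase C and is abundant in mesenchymal cells. It had 5.32, 3.63, 5.63 and 5.99 CPM in Control mice 154, 159, 181 and 193, and 9.47, 8.25, 8.24 and 4.85 CPM in Mc1r LKO mice 141, 156, 157 and 182. Of the Mc1r LKO mice, 3 were above all Control mice, and mouse 182 was inside the Control range. This gave a log2 fold change of 0.57 ± 0.23 (SE; unadjusted p = 0.0352, Benjamini-Hochberg adjusted p = 0.734, edgeR quasi-likelihood test, and adjusted p of 0.681 to 0.826 over the 6 alternatives that gave one). It was called in 3 of the 8 fits that left out 1 mouse, under 5 of 7 alternatives, and without mice 159 and 182 together (0.62). It was between 0.45 and 0.58 on the log2 scale in the fits in which the call was lost, those without Control mouse 154 or 159 or Mc1r LKO mouse 141, 156 or 157. The stellate cell marker sum was 245.0 to 430.0 CPM in Control mice and 229 to 393 CPM in Mc1r LKO mice. It was lowest in mouse 182, as Akap12 was among the Mc1r LKO mice. However, it was highest in Control mouse 193, where Akap12 was 5.99 CPM. The cholangiocyte marker sum was also lowest in mouse 182 (29.8 CPM) and was highest in mouse 141 (255 CPM), which had the most Akap12. Among Control mice that sum was lowest in mouse 181 (59.7 CPM), while Akap12 was lowest in mouse 159. The part of either cell type in Akap12 was not tested.

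The other 5 tested anchors, Akap7, Akap9, Akap10, Akap11 and Akap13, all had negative log2 fold changes, between -0.22 and -0.02. Akap9, the large Golgi and centrosome anchor, came closest to the threshold (log2 fold change -0.22 ± 0.10 SE, unadjusted p = 0.0550 by edgeR's quasi-likelihood test). Akap2, Akap3, Akap4, Akap5, Akap6 and Akap14 were not tested. Akap5 and Akap6 had between 1 and 21 counts per mouse and the other 4 at most 4. For Akap2, 82.3% of the exon length is shared with Pakap on the same strand, and pairs in the shared part were not counted for either gene. In all, 7 of the 19 genes below the filter had over 3 counts in some mouse, and none passed the exact permutation test (lowest exact p = 0.286, Benjamini-Hochberg adjusted over the 7 genes 0.83).

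At the nuclear end of the pathway, the CREB and CRTC genes did not differ between the genotypes beyond their spread. Creb1, the transcription factor that PKA phosphorylates, had 14.5, 14.9, 14.7 and 18.1 CPM in Control mice 154, 159, 181 and 193, and 16.6, 12.7, 13.5 and 15.9 CPM in Mc1r LKO mice 141, 156, 157 and 182 (log2 fold change -0.09 ± 0.13 SE, 95% interval -0.37 to 0.19). Crtc2, the CREB coactivator through which glucagon acts on gluconeogenic genes, made up between 69.6% and 75.9% of CRTC RPKM. Its level was 22.8, 26.1, 21.7 and 27.6 CPM in Control mice and 22.4, 21.9, 24.9 and 26.1 CPM in Mc1r LKO mice in the same order, with a log2 fold change of -0.04 ± 0.11 (SE). Crem, whose ICER products repress CRE-driven genes, had 17.4, 17.1, 21.3 and 14.8 CPM in Control mice and 16.6, 18.0, 18.7 and 29.5 CPM in Mc1r LKO mice. Mouse 182 alone was high for Crem. The log2 fold change of 0.23 ± 0.19 (SE) became 0.02 without mouse 182. Crtc1 and Crtc3 had log2 fold changes of -0.14 and -0.06.

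Genes next to the members in the pathway were examined as lists. Gs-coupled receptors other than the melanocortin receptors were represented by 12 tested genes of 24, and none was nominally different. The glucagon receptor gene Gcgr was the most abundant at 88.3 RPKM, with 225, 248, 226 and 239 CPM in Control mice 154, 159, 181 and 193, and 223, 232, 214 and 243 CPM in Mc1r LKO mice 141, 156, 157 and 182. Its log2 fold change was -0.04 ± 0.08 (SE, 95% interval -0.22 to 0.14). Vipr1, encoding a receptor for vasoactive intestinal peptide, came next at 5.84 RPKM (log2 fold change 0.05 ± 0.11 SE). RNA for another receptor that couples to Gs was thus abundant in the livers in which all 5 melanocortin receptors were at 0 counts.

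Of the other G protein subunits and regulators, 17 of 21 were tested and 1 was nominally lower, where 2.66% of all genes were. Gnai1, encoding an inhibitory G alpha subunit that opposes Gs at adenylyl cyclase, had 3.40, 4.28, 2.87 and 3.34 CPM in Control mice 154, 159, 181 and 193, and 2.83, 1.82, 1.86 and 1.38 CPM in Mc1r LKO mice 141, 156, 157 and 182. The genotypes did not overlap, although mouse 141 lay just below mouse 181. On the log2 scale the difference was -0.82 ± 0.26 (SE; unadjusted p = 0.0112, Benjamini-Hochberg adjusted p = 0.734, edgeR quasi-likelihood test), and it was called in all 8 fits that left out 1 mouse. Without mice 159 and 182 together it was -0.57 and not called. Gnai1 was much less abundant than the related Gnai2 and Gnai3, which had log2 fold changes of -0.02 and 0.12. Gng5, encoding a G gamma subunit, was between 39.9 and 41.9 CPM in Control mice and between 46.4 and 50.1 CPM in Mc1r LKO mice, without overlap, but its log2 fold change of 0.22 ± 0.07 (SE, unadjusted p = 0.0126) was under the limit of 0.25.

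The known targets of CREB and CRTC2 were the list with the highest median log2 fold change among the pathway lists. Of 16 genes, 14 were tested, and 11 of these (78.6%) had a positive log2 fold change, where 6412 of all 13400 genes did. The median of the list was 0.27 against -0.01 over all genes tested. Of the 14, 2 (14.3%) were nominally higher and none was nominally lower, where 2.64% of all genes were higher and 2.66% lower. The list was chosen with earlier results of these data known, so these shares are a description and not independent support. Per1, a clock gene, had 21.4, 10.1, 24.96 and 18.0 CPM in Control mice 154, 159, 181 and 193, and 38.0, 34.6, 23.1 and 31.8 CPM in Mc1r LKO mice 141, 156, 157 and 182. Only Mc1r LKO mouse 157 fell inside the Control range. For Per1 the log2 fold change was 0.76 ± 0.24 (SE; unadjusted p = 0.0105, Benjamini-Hochberg adjusted p = 0.734, edgeR quasi-likelihood test), and it was called in all 8 fits that left out 1 mouse. Tat, which encodes the tyrosine-degrading aminotransferase, had 347, 362, 851 and 495 CPM in Control mice and 1299, 1138, 407 and 937 CPM in Mc1r LKO mice in the same order, with mouse 157 again inside the Control range. Its log2 fold change was 0.88 ± 0.37 (SE, unadjusted p = 0.0374), and it was called in 3 of the 8 fits that left out 1 mouse. It was not called without Control mouse 154 (0.73), 159 (0.75) or 193 (0.87) or without Mc1r LKO mouse 141 (0.69) or 156 (0.78). Without mice 159 and 182 together, Per1 was called (0.57) and Tat was not (0.75). Per1 and Tat are also induced by glucocorticoids, and Per1 follows the time of day.

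The gluconeogenic genes of that list varied more between mice than between genotypes. Pck1, encoding phosphoenolpyruvate carboxykinase, had 688, 1048, 1273 and 1856 CPM in Control mice 154, 159, 181 and 193, and 2447, 1372, 976 and 1920 CPM in Mc1r LKO mice 141, 156, 157 and 182. The groups overlapped widely. Its log2 fold change was 0.46 ± 0.32 (SE, unadjusted p = 0.182 by edgeR's quasi-likelihood test), and without Control mouse 193 it was 0.75 and nominally higher. G6pc, the glucose-6-phosphatase gene, and Ppargc1a, the coactivator PGC-1alpha, had log2 fold changes of 0.30 ± 0.46 (SE) and 0.13 ± 0.26 (SE).

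Of the CREB relatives and partners, 14 of 16 were tested and 1 was nominally lower, where the share over all genes was 2.66%. Sik2, encoding a salt-inducible kinase that holds CRTC2 inactive in the cytoplasm, had 7.66, 9.11, 12.6 and 9.01 CPM in Control mice 154, 159, 181 and 193, and 5.67, 6.89, 6.10 and 8.02 CPM in Mc1r LKO mice 141, 156, 157 and 182. Mouse 182 lay above Control mouse 154, and the other Mc1r LKO mice were below all Control mice. For Sik2 the log2 fold change was -0.52 ± 0.19 (SE; unadjusted p = 0.0183, Benjamini-Hochberg adjusted p = 0.734, edgeR quasi-likelihood test), and it was called in 5 of the 8 fits that left out 1 mouse. It was not called without Control mouse 181 (-0.36) or without Mc1r LKO mouse 141 (-0.45) or 157 (-0.47). Without mice 159 and 182 together, Sik2 was called (-0.64).

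In the remaining lists no gene was nominally different. These were 7 tested PDE genes of other families (median log2 fold change -0.10), 13 tested PKA inhibitors, Rap regulators and other cAMP effectors (-0.02), 9 tested anchoring proteins without the Akap name (-0.01), and 8 tested genes for the processing and accessory proteins of the melanocortin system (-0.10). In the last list, Cpd, encoding carboxypeptidase D, was between 27.6 and 31.1 CPM in Control mice and between 25.3 and 27.1 CPM in Mc1r LKO mice, without overlap, with a log2 fold change of -0.17 ± 0.08 (SE, unadjusted p = 0.0557 by edgeR's quasi-likelihood test). Attractin (Atrn) and mahogunin (Mgrn1), which act with agouti and MC1R in pigment cells, had log2 fold changes of 0.03 and -0.06.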

How the data were processed

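Liver RNA of 4 Control and 4 Mc1r LKO mice was sequenced from stranded mRNA libraries. The authors trimmed reads with Trim Galore 0.6.6, aligned them with STAR 2.7.6a and deposited unnormalized counts of read pairs, made per gene with featureCounts of Subread 2.0.1. The headers name GRCm38 and strand option 2, while the methods write GRCh38, and no option for multimapped pairs or pairs over several genes was set, so that such pairs were not counted. Symbols matched 57 of the 58 members, and Asip was found through its synonym.

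The quasi-likelihood test of edgeR 4.0.16 (glmQLFit, glmQLFTest; R 4.3.3) was applied to the deposited counts after filterByExpr (minimum count 10) and TMM normalization, and p-values were adjusted over the 13400 genes kept by the Benjamini-Hochberg method. The methods name the filter, the normalization and the threshold, but not the test. Untested genes were scaled by the total count, and exact permutation tests used scipy 1.17.1. Alternatives were DESeq2 1.42.0, limma-voom (limma 3.58.1), robust dispersion, RLE factors, total count only, no filter, at least 10 counts in every mouse, and leaving out each mouse. Leaving out mice 159 and 182 together was added after the data were seen. Log2 fold changes are moderated by the default prior of edgeR.

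Given by mouse were nominally different members, members without overlap, Mc1r, Pomc, Gnas and Creb1, and the 2 tested genes of each role with the highest RPKM. From the pathway lists, but not from all marker lists, the nominally different or non-overlapping genes were named, with the 2 most abundant targets and receptors. Further genes in the text were picked with their values in view. The members and lists were chosen with earlier results of these data known. The labels do not say that mice came from separate litters, so p-values measure the spread between these mice.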

Additional observations from a re-analysis of the deposited data

Results flagged for a closer look

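In 3 of 78 groups of 4 mice, 1 mouse lay far from the other 3 for a gene given above, where chance alone gives about 1 in 20, or 3.9. Creb1 was 18.1 CPM in Control mouse 193, while the 3 others of that genotype had 14.5 to 14.9 CPM. Mrap was 47.2 CPM in Control mouse 193, against 79.8 to 85.9 CPM in the others. Crem was 29.5 CPM in Mc1r LKO mouse 182, against 16.6 to 18.7 CPM in the others.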

How the results depend on the processing

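Of 448 values for single named genes under alternatives, 415 kept their side of the threshold, 30 lost the call and 3 gained it. Most of these genes were not called in the main fit, and for them keeping the side meant staying uncalled. The lost calls fell on Adcy7, Akap12, Tat, Pde4a, Sik2 and Gnai1, while Pde4b and Per1 kept theirs throughout. The nominally different members numbered 4 in edgeR and 2 in limma-voom (Pde4a and Pde4b), and between 1 and 4 when 1 mouse was left out, with 2 when mouse 159 or 141 was dropped and 1 (Pde4b) when mouse 157 was. The members without overlap numbered 2 to 5 when 1 mouse was left out, with 5 when mouse 154 and 4 when mouse 182 was dropped. With fewer mice any gene reaches this more easily. The share over all genes was not counted in these settings, so the rise is not a result about the members. Over all genes, 711 were nominally different, compared with 1140 without the filter on low counts, 606 to 931 with 1 mouse left out, and 1194 without mice 159 and 182. At an adjusted p under 0.05, edgeR called 0 genes, DESeq2 17, and edgeR without the filter 1, and 0 of these were members. With total count only, 25.3% of nominally different genes were higher instead of 49.8%, the members called were 5, all lower (Adcy7, Akap8, Akap9, Pde4a and Pde4b), and the median of all genes was -0.06. The member median was between -0.11 and -0.05 in every fit run. The cause of these moves was not tested. No paired analysis was possible because the mouse numbers are not shared between genotypes. Genes under about 1 CPM were limited by depth, since 3 counts are up to 0.278 CPM.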

Other observations

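Within genotype, the coefficient of variation of the 39 tested members ran from 4.80% (Akap1) to 67.9% (Adcy1), with a median of 15.2%, compared with 16.3% over all tested genes. Adcy1, a neuronal cyclase, ranged from 0.45 to 3.42 CPM over the 8 mice, and the extremes were Control mouse 193 and Mc1r LKO mouse 182. The cyclases were the most variable role, with a median of 30.2%.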
